A study of Mus musculus with 16 samples.

Results

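Acinar cells of the exocrine pancreas surround the islets, and their genes were followed here in chromatin accessibility data from isolated islets. The genes were 9 named markers of acinar cells, namely the digestive enzymes Cpa1, Cel, Pnlip, Ctrb1 and Cela2a and the transcription factors Ptf1a, Rbpjl, Bhlha15 and Nr5a2. They were chosen by name, with earlier results of these data known, and all 9 were found in the gene annotation. Every accessible region that touched one of these genes, or the 10 kb on either side of it, was taken as a member, which gave 67 regions of 347712 on the autosomes.

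The study profiled pancreatic islets by ATAC-seq, in which a transposase inserts sequencing adapters into open chromatin. The 16 samples were 1 female and 1 male from each of 8 inbred strains, labelled 129S1_SvImJ (129), A_J (AJ), C57BL/6J (B6), CAST_EiJ (CAST), NOD_ShiLtJ (NOD), NZO_HlLtJ (NZO), PWK_PhJ (PWK) and WSB_EiJ (WSB). CAST, PWK and WSB are wild-derived, and the other 5 strains are classical inbred strains. Each sample was made from 50 islets of average size, and its library was amplified for 12 cycles, with no treatment, transgene or other allele in the labels and no age given there. These 2 samples per strain are its only replicates, and nothing in the labels says whether a sample came from 1 animal or several, so a p-value measures the spread between these samples alone.

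Acinar cells make and secrete the enzymes that digest protein, fat and starch in the gut, and most of the pancreas consists of them. Their enzyme genes are switched on by a complex of PTF1A, an E protein and RBPJL, which reads an E-box together with an RBPJ core. NR5A2 works with this complex at enzyme genes, and BHLHA15, also called MIST1, shapes the secretory apparatus. PTF1A and NR5A2 are also used earlier, in the growing pancreas, and NR5A2 is used in liver and intestine as well. Islets are cut free of acinar tissue by digestion and picking, so open acinar promoters would be one sign of acinar nuclei in an islet sample.

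The sequences on which the results turn are the start sites of these genes and the open stretches inside Nr5a2. They are printed 5′ to 3′ on the strand of the gene, with capitals for an E-box (CANNTG), an RBPJ core (TTCCCA, or TGGGAA on the other strand) and an NR5A2 core (AAGGTCA, or TGACCTT). No sample listed a peak over the start of an enzyme gene. The B6 female listed a peak that overlapped the upstream end of the printed Cpa1 promoter. Enzyme genes are represented by the first pair. They are the promoters of Cpa1 at chr6:30638968-30639267 on the plus strand and of Cela2a at chr4:141825956-141826255 on the minus strand (RefSeq, GRCm38.p6, the same assembly as mm10).
Cpa1: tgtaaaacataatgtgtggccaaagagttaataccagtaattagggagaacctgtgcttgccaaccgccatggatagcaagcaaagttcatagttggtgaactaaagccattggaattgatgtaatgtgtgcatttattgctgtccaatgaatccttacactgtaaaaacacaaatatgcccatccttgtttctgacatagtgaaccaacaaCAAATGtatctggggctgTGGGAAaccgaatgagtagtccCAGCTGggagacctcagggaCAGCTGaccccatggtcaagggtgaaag
Cela2a: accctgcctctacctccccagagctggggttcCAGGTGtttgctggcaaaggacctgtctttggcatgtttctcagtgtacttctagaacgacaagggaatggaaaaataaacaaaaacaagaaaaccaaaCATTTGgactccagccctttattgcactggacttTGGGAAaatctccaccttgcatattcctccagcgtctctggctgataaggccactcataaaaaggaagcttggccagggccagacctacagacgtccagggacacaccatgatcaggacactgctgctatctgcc

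The factors are shown by the promoters of Ptf1a at chr2:19445413-19445712, of Rbpjl at chr2:164402944-164403243 and of Bhlha15 at chr5:144190036-144190335, all on the plus strand. Ptf1a had no listed peak at its start, Rbpjl had one in some samples, and Bhlha15 had one in every sample.
Ptf1a: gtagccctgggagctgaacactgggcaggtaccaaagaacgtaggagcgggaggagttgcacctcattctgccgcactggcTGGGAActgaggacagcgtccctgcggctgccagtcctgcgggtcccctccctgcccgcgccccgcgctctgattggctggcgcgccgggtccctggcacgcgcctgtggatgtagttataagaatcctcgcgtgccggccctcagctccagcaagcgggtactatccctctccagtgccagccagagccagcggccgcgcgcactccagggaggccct
Rbpjl: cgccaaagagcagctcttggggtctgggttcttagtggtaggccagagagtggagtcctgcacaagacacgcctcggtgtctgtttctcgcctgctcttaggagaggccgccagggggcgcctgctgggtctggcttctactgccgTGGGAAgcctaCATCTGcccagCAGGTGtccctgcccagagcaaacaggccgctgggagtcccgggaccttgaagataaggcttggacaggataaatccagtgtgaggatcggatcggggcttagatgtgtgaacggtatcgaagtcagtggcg
Bhlha15: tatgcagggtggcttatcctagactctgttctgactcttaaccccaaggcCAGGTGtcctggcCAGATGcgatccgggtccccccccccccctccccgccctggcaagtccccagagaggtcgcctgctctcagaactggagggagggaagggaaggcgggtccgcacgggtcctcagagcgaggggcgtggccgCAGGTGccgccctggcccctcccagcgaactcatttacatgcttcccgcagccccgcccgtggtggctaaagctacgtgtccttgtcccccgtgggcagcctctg

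Nr5a2 is shown by 3 stretches on the minus strand of chromosome 1, read from the GRCm38.p6 genome. They are the start of the shorter transcript Nr5a2-202 at chr1:136949513-136949812, and the centres of the 2 strongest member regions at chr1:136910337-136910636 and chr1:136890705-136891004.
Nr5a2-202: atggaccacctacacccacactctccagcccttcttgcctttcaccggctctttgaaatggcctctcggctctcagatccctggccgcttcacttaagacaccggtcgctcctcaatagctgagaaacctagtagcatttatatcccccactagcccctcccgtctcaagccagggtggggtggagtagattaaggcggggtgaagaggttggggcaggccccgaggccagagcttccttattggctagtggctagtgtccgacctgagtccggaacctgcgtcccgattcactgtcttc
Nr5a2-intron: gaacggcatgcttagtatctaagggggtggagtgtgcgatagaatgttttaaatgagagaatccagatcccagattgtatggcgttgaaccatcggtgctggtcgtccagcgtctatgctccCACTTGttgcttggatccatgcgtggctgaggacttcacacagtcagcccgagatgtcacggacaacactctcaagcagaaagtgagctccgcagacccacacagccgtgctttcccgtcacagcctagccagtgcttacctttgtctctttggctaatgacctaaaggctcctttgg
Nr5a2-exon: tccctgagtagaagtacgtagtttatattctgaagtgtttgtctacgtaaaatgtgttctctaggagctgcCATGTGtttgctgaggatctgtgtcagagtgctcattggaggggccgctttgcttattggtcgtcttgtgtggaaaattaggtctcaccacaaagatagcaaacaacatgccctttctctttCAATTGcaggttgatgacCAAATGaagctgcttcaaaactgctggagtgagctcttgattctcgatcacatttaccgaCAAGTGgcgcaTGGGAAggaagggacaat

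All 9 genes had a RefSeq promoter of 300 bases, and Nr5a2 had 2, which made 10 promoters. Matches were searched on both strands, and an E-box may overlap another match, as in the Cel promoter, where the NR5A2 core shares bases with an E-box. An RBPJ core was found in 7 of the 10, against 25.3% of 31396 autosomal promoters of that length. These were the promoters of all 5 enzymes, Ptf1a and Rbpjl. For Pnlip, the RefSeq start lies further into the gene than the start of the gene record, from which the distances of its regions are given, and the start of no Pnlip transcript was listed. An E-box was found in 8 of the 10, against 72.2% of all promoters, and the NR5A2 core in 1 of the 10, that of Cel, against 4.69%. A match is only a run of letters and is no evidence of binding.

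Signal is given here as the summit signal of the highest peak a sample listed in a region, divided by the median of that sample over the 40940 regions that all 16 samples listed. A scaled signal of 1 is therefore a typical shared region, and 0 means that no peak was listed and not that the chromatin was closed. That median was lowest in the PWK male, at 32, and highest in the CAST male, at 136. The 5th percentile of scaled signal among listed peaks was 0.0660 in the WSB female and 0.200 in the AJ male, the extremes. Depth is stated by the study as an average across samples, and the sources used here give no total for each one. The depth behind a single value is therefore unknown, and no counting interval is given. No batch is given in the labels. A pair of samples stood apart over the whole genome. Regions that no other sample listed made up 25.1% of those listed in the NZO male and 28.0% in the PWK male, against 1.85% to 12.3% in the other 14 samples. The counts of listed starts, the strain calls and the number of member regions with a peak are given with and without these males below.

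The starts of the enzyme genes were unlisted throughout. A peak lay over the start of the gene record for 2 of the 9 acinar genes, Rbpjl and Bhlha15, and for 0 of the 5 enzymes in any of the 16 samples. For comparison, 10 of 12 beta cell genes had a listed peak at the start, 8 of them in all 16 samples. That list was chosen with earlier results of these data known, so it is no independent check of the islet label. Over all 20807 protein-coding autosomal genes, 64.2% had a listed start in some sample and 48.5% in all 16. The count of 2 acinar genes and that of 10 beta cell genes held without both males, under a stricter peak threshold and with equal numbers of peaks per sample. Whether a low level at these loci means few acinar nuclei or little open chromatin per nucleus cannot be told apart in such bulk samples. No sample of acinar tissue was analysed here, so the signal that acinar cells would give at these starts is unknown.

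**Figure D1:**
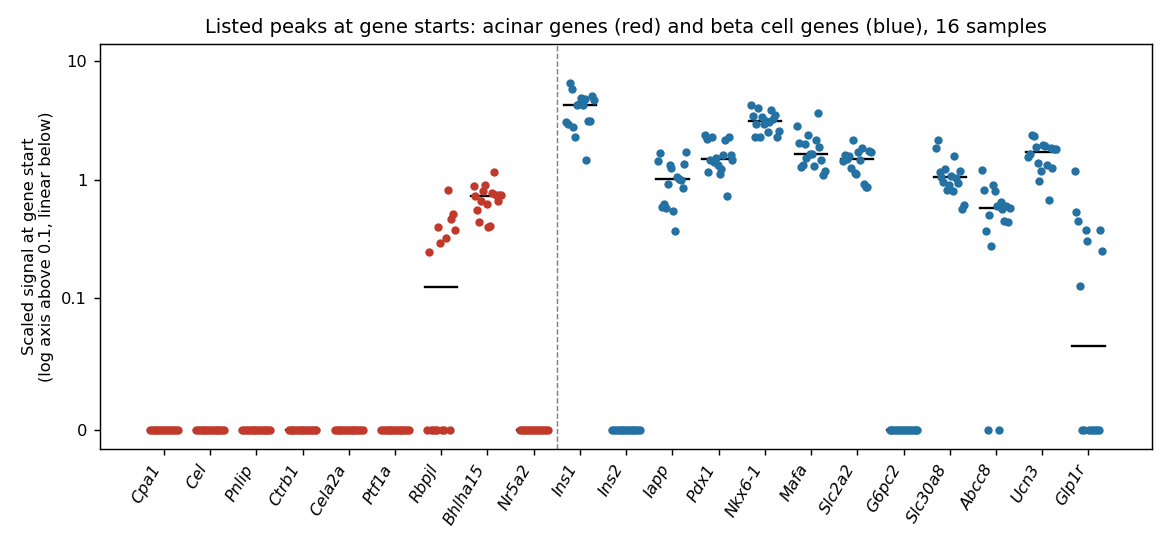
Scaled signal at the start of the gene record for the 9 acinar genes (red) and 12 beta cell genes (blue), with 1 point per sample, a black bar at the median, and a vertical axis that is logarithmic above 0.1 and linear below. All samples are at 0 for 7 of the 9 acinar genes, Rbpjl is listed in 8 samples and Bhlha15 in 16. Ins2 and G6pc2 are at 0 here because another of their transcript starts carries the peak.

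Among the enzymes, Cpa1 encodes carboxypeptidase A1, which trims amino acids from the end of proteins. Its window held 3 regions, and the nearest to the gene start lay 219 bases away. That region (chr6:30638800-30638999) was listed in the B6 female alone, at 0.119, and overlapped the upstream end of the printed promoter. The best of the 3 lay 9.0 kb upstream, within the body of the neighbouring gene Cpa5 (chr6:30630000-30630470), and was listed in 8 samples with a median scaled signal of 0.0741. It reached 0.466 in the 129 female, 0.400 in the AJ female, 0.330 and 0.265 in the CAST female and male, and 0.377 and 0.409 in the WSB female and male. It was 0.148 in the NZO female, 0.210 in the PWK female, and unlisted in both B6, both NOD and the remaining males. WSB and CAST were the strains in which both sexes carried it.

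Cel encodes the bile salt-dependent lipase. Its 3 regions lay at least 8404 bases from the gene start, and the best was 15.5 kb downstream of the start, in the body of Ralgds (chr2:28547594-28548115). Female and male values there were 0.948 and 0.348 in 129, 0 and 0 in AJ, 0.476 and 0.337 in B6, 0.604 and 0.294 in CAST, 0.326 and 0.171 in NOD, 0.358 and 0.691 in NZO, 0.435 and 0.906 in PWK, and 0.368 and 0.307 in WSB. Both AJ samples were thus unlisted and the other 14 listed.

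Cela2a encodes an elastase, and it resembled Cel in this respect. The best of its 6 regions lay 16.1 kb downstream of the start, in the body of Casp9 (chr4:141809849-141810274). It held 0.707 and 0.725 in 129, 0.354 and 0.309 in AJ, 0.631 and 0.735 in B6, 0 and 0 in CAST, 0.326 and 0.256 in NOD, 0.679 and 0.600 in NZO, 0.516 and 0.750 in PWK, and 0.623 and 0.591 in WSB, female before male. Both CAST samples were unlisted, and AJ and NOD lay below the other listed strains. Reads of every strain were aligned to the B6 reference. The study also aligned them to individualized genomes and reported a small average difference between the strategies. The part that strain sequence plays in an unlisted peak at this region was not tested. The nearest region to the start of Cela2a lay 2040 bases away and overlapped the gene of the chymotrypsin Ctrc.

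Ctrb1 encodes chymotrypsinogen B and Pnlip the main lipase of pancreatic juice. Of the 4 regions of Ctrb1, 3 were listed in 1 sample each, and the best lay 12.7 kb downstream of the start (chr8:111678197-111678399). It was listed in 12 samples at 0.255 to 0.483, highest in the 129 female, and was unlisted in both AJ samples, the B6 male and the NOD female. Pnlip had the weakest window. Its 2 best regions lay 6.6 and 2.3 kb upstream of the gene record, had a median of 0, and were listed in 4 and 5 samples. The former was seen at 0.132 in the CAST female, 0.210 in the PWK female, and 0.160 and 0.148 in the WSB female and male. The latter was seen at 0.200 in the NZO male, 0.210 and 0.250 in PWK, and 0.283 and 0.307 in WSB. Across all 5 enzymes, 21 regions were found, of which 0 were listed in all 16 samples and 3 in 12 or more. Of all 347712 regions, 11.8% were listed in all 16 samples, and 66895 in 12 or more. With so few enzyme regions, these counts are no result about the enzyme genes.

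The factors differed more from each other than the enzymes did. Ptf1a, the factor that names the complex, had 3 regions. The best lay 2.6 kb downstream of the start, past the end of this short gene (chr2:19448043-19448514), and was listed in 14 samples. Female and male values were 0.362 and 0.594 in 129, 0.446 and 0.582 in AJ, 0.417 and 0.494 in B6, 0.274 and 0.324 in CAST, 0.767 and 0.683 in NOD, 0.383 and 0 in NZO, 0.323 and 0 in PWK, and 0.377 and 0.375 in WSB. The 2 unlisted samples were the NZO male and the PWK male, the same that stood apart over the genome. NOD held the highest pair.

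Rbpjl encodes the acinar form of RBPJ, which binds DNA without needing Notch. Its start region (chr2:164402998-164403157) lies within the printed promoter and within the body of Matn4, and it covers the start of the gene record and of transcript Rbpjl-203, 37 bases from the nearest start of a coding transcript. It was listed in 8 samples with a median of 0.123. Values were 0.246 in the 129 male, 0.396 and 0.294 in the CAST female and male, 0.321 and 0.818 in NZO, 0.469 in the PWK male, and 0.509 and 0.375 in WSB. Both AJ, both B6 and both NOD samples were unlisted, as were the 129 and PWK females. The NZO male was 0.818 against at most 0.509 in any other sample. Markers of other cells in that male are described below, and a link between them and this level was not tested.

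Bhlha15, the secretory factor, was the only one of the 9 genes whose gene record start lay in a region listed in all 16 samples, and under the stricter peak threshold none did (chr5:144189858-144191024). Female and male values were 0.879 and 0.725 in 129, 0.554 and 0.436 in AJ, 0.655 and 0.795 in B6, 0.896 and 0.618 in CAST, 0.395 and 0.402 in NOD, 0.765 and 1.16 in NZO, 0.742 and 0.656 in PWK, and 0.736 and 0.739 in WSB. The median of 0.730 placed it at percentile 34.9 of shared regions. The NOD pair and the AJ male were the 3 lowest samples, and the NZO male was the highest. A weaker region 5.8 kb upstream, in the body of Lmtk2 (chr5:144184088-144184847), was listed in 14 samples with a median of 0.332 and was unlisted in the AJ male and the PWK male.

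**Figure D2:**
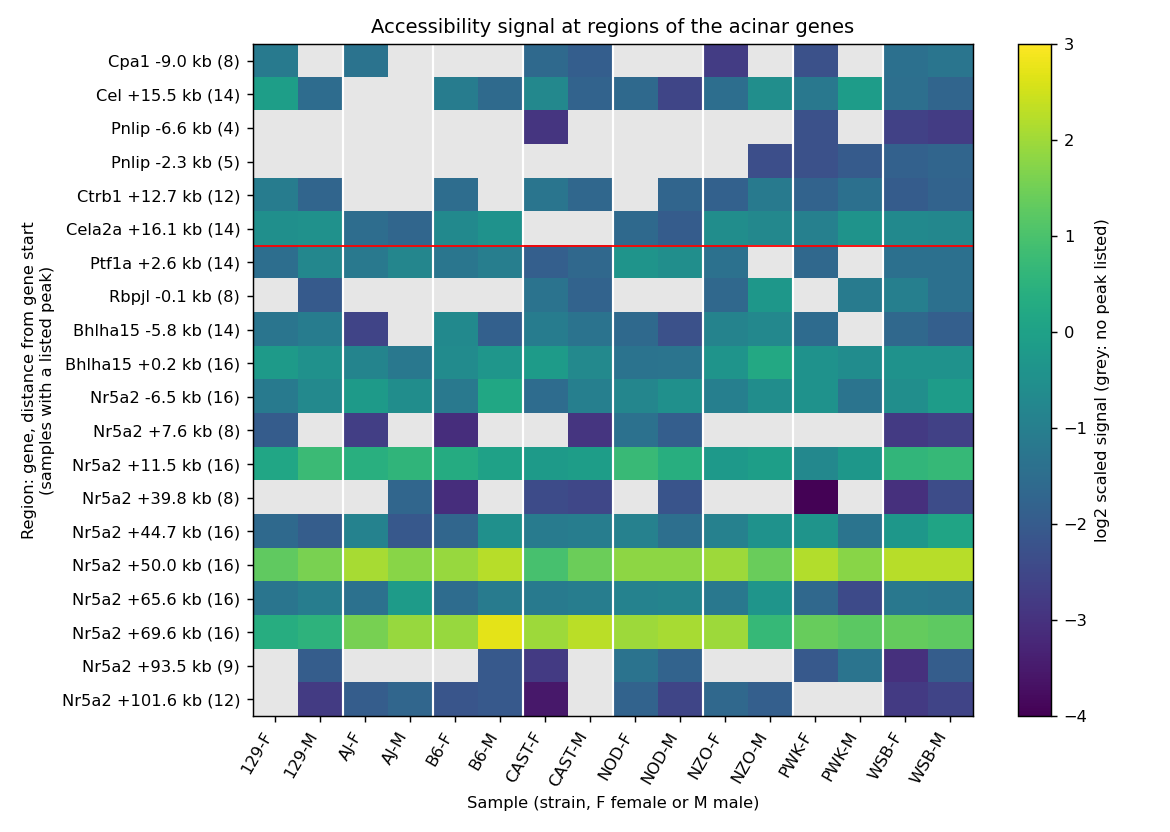
Scaled signal on a log2 colour scale for the member regions listed in at least 8 samples and the 2 best regions of Pnlip (rows, with distance from the gene start and the number of samples in brackets) in the 16 samples (columns). A red line parts the enzymes above from the factors below, and grey marks no listed peak. The rows of Nr5a2 50.0 and 69.6 kb into the gene are the brightest, and enzyme rows are weak or grey, with both AJ samples grey for Cel and both CAST samples grey for Cela2a.

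Nr5a2, an orphan nuclear receptor, carried most of the open chromatin of the set. It spans 117.878 kb on chromosome 1 and held 34 of the 67 regions and 6 of the 7 member regions that all 16 samples listed. The start of the gene record was unlisted, with the nearest region 54 bases away and listed in 2 samples. The start of the shorter transcript Nr5a2-202, 11.5 kb into the gene, lay in a region that every sample listed (chr1:136948167-136949727). Female and male values there were 1.10 and 1.70 in 129, 1.34 and 1.49 in AJ, 1.23 and 1.01 in B6, 0.877 and 0.926 in CAST, 1.69 and 1.32 in NOD, 0.840 and 0.945 in NZO, 0.597 and 0.812 in PWK, and 1.52 and 1.61 in WSB. The median of 1.16 was at percentile 58.2 of shared regions, with the PWK female lowest and the 129 male highest.

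The strongest member region lay in an intron 50.0 kb into Nr5a2 (chr1:136909773-136911200). It held 2.43 and 3.00 in 129, 4.26 and 3.40 in AJ, 3.80 and 4.76 in B6, 1.96 and 2.68 in CAST, 3.52 and 3.51 in NOD, 3.93 and 2.62 in NZO, 4.55 and 3.38 in PWK, and 4.72 and 4.74 in WSB. Its median of 3.52 was at percentile 90.3, the B6 male and both WSB samples held the 3 highest values, and the CAST female was lowest. A second strong region, 69.6 kb into the gene, overlapped an exon (chr1:136889718-136891991). It held 1.29 and 1.45 in 129, 2.98 and 3.80 in AJ, 3.80 and 6.51 in B6, 3.91 and 4.85 in CAST, 3.93 and 4.23 in NOD, 3.96 and 1.62 in NZO, 2.61 and 2.34 in PWK, and 2.55 and 2.40 in WSB. Here 129 was lowest in both sexes, and the NZO male lay nearer to 129 than to the NZO female.

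The other 3 regions of Nr5a2 that all samples listed were weaker. They lay 65.6 kb and 44.7 kb into the gene and 6.5 kb upstream of it, with medians of 0.448, 0.504 and 0.641. The 3 strongest, at 69.6, 50.0 and 11.5 kb, were the only member regions present in all 8 strain lists, in which the authors combined the sexes. Of the remaining 28 regions of Nr5a2, 1 was listed in 12 samples, 11 in 2 to 11 and 16 in 1 sample. Whether this open chromatin belongs to endocrine or to acinar nuclei cannot be told apart in these samples.

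**Figure D3:**
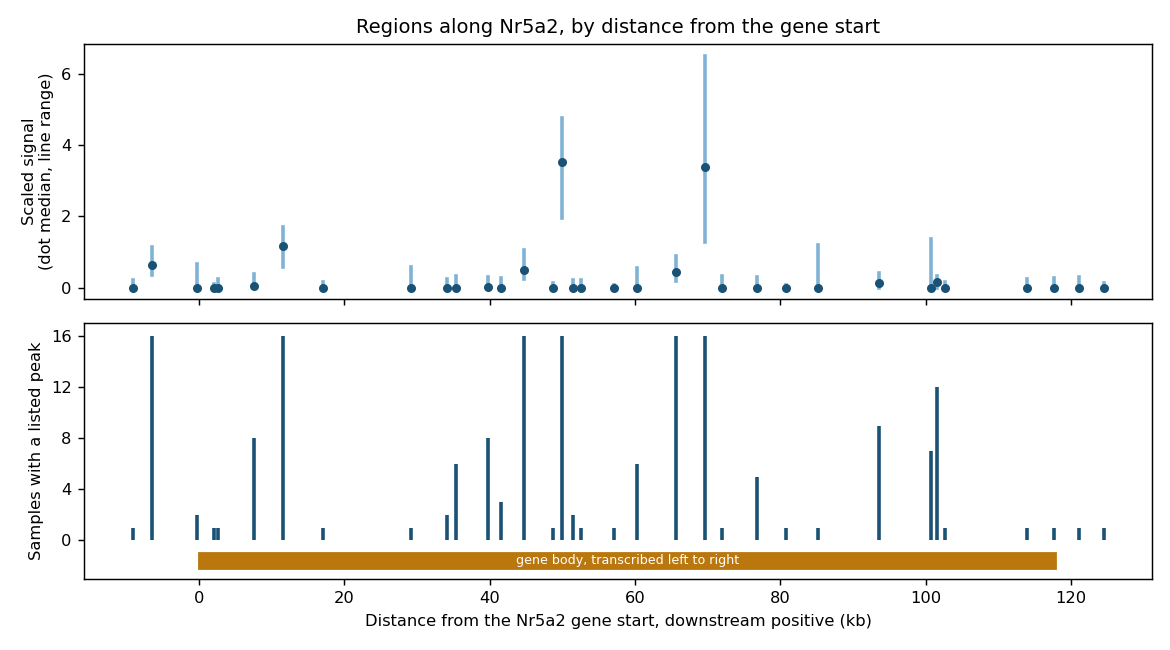
The 34 regions along Nr5a2 by distance from the start of the gene record, with the median and range of scaled signal over 16 samples (upper panel) and the number of samples with a listed peak (lower panel, with the gene body as a bar). Most regions are rare and weak, 6 are listed in all 16 samples, and those at 50.0 and 69.6 kb reach medians of 3.52 and 3.39.

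To ask whether strain, sex or strain class shifted these regions, limma was fitted to log2(signal + 1) over all 40940 shared regions, after subtracting the sample's median, and p-values were adjusted by Benjamini-Hochberg over all of them. Only 7 of the 67 member regions could enter, 6 of Nr5a2 and the Bhlha15 start, and none of the enzymes. Strain changed 3 of these 7 regions, against 35.7% of all shared regions, so the share of members with a call was near the background and is no result about acinar genes. The called regions were those 69.6 kb and 11.5 kb into Nr5a2 and the Bhlha15 start. Leaving out both males gave 4 calls among the 7, where 54.4% of all shared regions were called. Fits without 1 sample gave from 0 calls (without the CAST male, background 19.2%) to 4 (without the B6 female, 35.3%, the NZO female, 60.1%, or the NZO male, 46.2%). The count was 1 without the 129 female (31.3%), the CAST female (18.7%), the PWK female (34.3%), the WSB female (23.2%) or the WSB male (22.7%). With no centring, it was 5, against 63.2% of all shared regions. Over the fits without 1 sample, the background itself ran from 18.7% to 60.1%.

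At the exon region of Nr5a2, the strain means ran from 0.45 in 129 to 2.30 in B6 on the centred log2 scale. This is a 3.61-fold difference, beside a spread between the sexes of a strain of 0.40 (SD, log2), and the adjusted p of limma's F test was 0.0211. Without both males it was 0.00165, without the NZO male 0.00137 and without the NZO female 7.49e-04. It rose to 0.0755 without the 129 female, 0.0547 without the 129 male and 0.0550 without the CAST male, so the call rests on them.

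At the shorter transcript of Nr5a2, the means ran from -0.51 in PWK to 0.64 in WSB, a 2.22-fold difference beside an SD of 0.23 between the sexes (adjusted p = 0.0236). The call was lost at 0.0617 without the CAST female, 0.0622 without the CAST male, 0.0597 without the PWK female, 0.0632 without the WSB female and 0.0624 without the WSB male. Without both outlying males it was 0.0240. For the Bhlha15 start, the means ran from -1.30 in NOD to -0.08 in NZO, a 2.33-fold difference beside an SD of 0.25 (limma, adjusted p = 0.0426). This is the least stable of the 3. It was kept when the 129 male, the B6 female or either NZO sample was left out and lost when any other sample was, with adjusted p-values of 0.0516 (B6 male) to 0.158 (NOD female). Without both males it was 0.0288.

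The intron region of Nr5a2 missed the threshold with all samples (limma, adjusted p = 0.0910), although its strain means differed by 1.04 in log2 between WSB and CAST beside an SD of 0.25. It passed at 0.0308 without the NZO female, 0.0472 without the NZO male and 0.0226 without both males. The region at 44.7 kb gave 0.118 with all samples, 0.0463 without the B6 female and 0.0437 without the B6 male. The regions at 65.6 kb and 6.5 kb upstream gave 0.147 and 0.403 and did not pass when any 1 sample was left out.

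**Figure D4:**
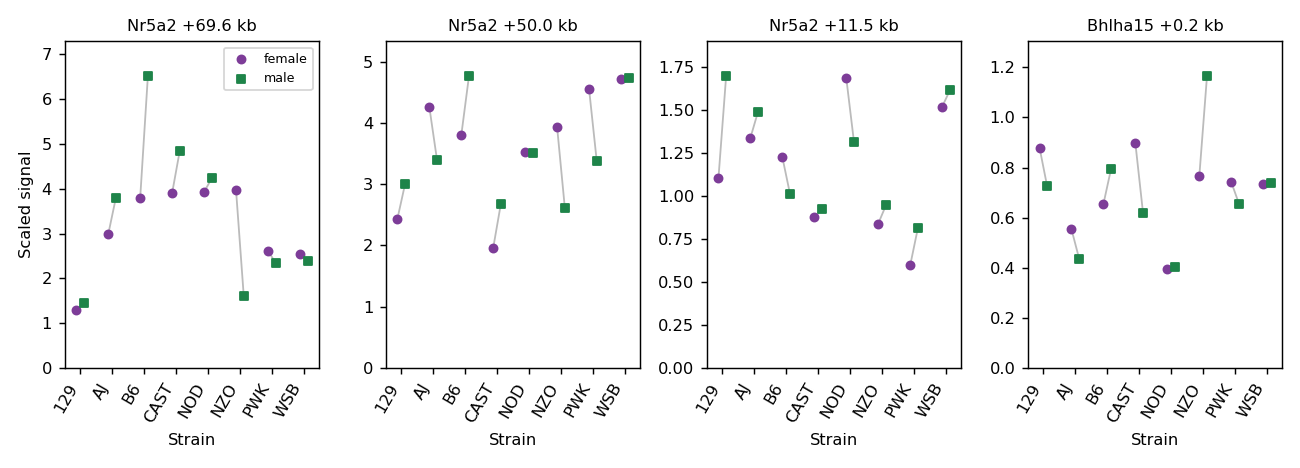
Scaled signal by strain at 3 regions of Nr5a2 and at the Bhlha15 start, with females as purple circles and males as green squares joined within a strain and each vertical axis starting at 0. The 129 pair is lowest at 69.6 kb (1.29 and 1.45), the WSB pair is high at 50.0 kb (4.72 and 4.74), and the NOD pair is lowest at the Bhlha15 start (0.395 and 0.402).

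Regions with a few unlisted samples could be compared only in a fit of the 66895 regions that at least 12 samples listed, with an unlisted peak entered as a signal of 0. There, limma called strain at 2 of 13 member regions, against 18.3% of all regions in that fit. They were those in the windows of Cel (adjusted p = 0.00312) and Cela2a (adjusted p = 8.30e-06). The Cel region was unlisted in both AJ samples and the Cela2a region in both CAST samples. With a signal of 0 entered for both sexes of a strain, these p-values reflect that listing pattern. A strain difference apart from it was not tested. The best Ptf1a region and the region upstream of Bhlha15 were also listed in 14 samples, but their gaps fell in different strains. Their adjusted p-values by limma were 0.341 and 0.163. The 3 regions called above were not called in this fit, at 0.0960, 0.0677 and 0.109. The Cel and Cela2a regions lie in the bodies of other genes, Ralgds and Casp9, and nothing in the lists ties them to the enzyme genes.

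No difference between the sexes was detected. Limma called 0 of the 7 member regions by sex, against 0% of all shared regions, and 0 of the 7 had an unadjusted p under 0.05, against 1621 of the 40940. The largest female minus male difference among the 7 was -0.27 ± 0.18 (SE, log2), at 65.6 kb into Nr5a2. Strain class gave 0 calls among the 7, against 0.0342% of all, and 0 again at an unadjusted p under 0.05, against 4960 of the 40940. The difference of wild-derived minus classical strains ran from -0.43 ± 0.25 (SE, log2) at 65.6 kb to 0.56 ± 0.29 at 44.7 kb. It was 0.18 ± 0.28 at the Bhlha15 start.

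To set the samples side by side, scaled signal was averaged over all 67 member regions, which is given as a description with no test. This acinar index was 0.175 and 0.172 in the 129 female and male, 0.195 and 0.189 in AJ, 0.226 and 0.271 in B6, 0.198 and 0.208 in CAST, 0.209 and 0.213 in NOD, 0.219 and 0.291 in NZO, 0.204 and 0.198 in PWK, and 0.260 and 0.256 in WSB. The NZO male was highest, followed by the B6 male and both WSB samples, and the 129 pair was lowest. The place of the NZO male depended on the processing. With equal numbers of peaks the B6 male was highest, at 0.423 against 0.366 in the NZO male. Under the stricter peak threshold these males held 0.4475 and 0.4469. With no scaling the CAST male was highest. With summed signal or narrower windows the NZO male stayed highest. By strain mean the order was WSB, NZO, B6, NOD, CAST, PWK, AJ and 129. The first 3 means, 0.258, 0.255 and 0.249, did not differ beyond the female to male spread of NZO (SD 0.0512) and B6 (SD 0.0321).

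The index was driven by Nr5a2. Over the 33 regions of the other 8 genes, the mean scaled signal ran from 0.0402 in the AJ male to 0.194 in the NZO male, with 0.160 in the WSB female and 0.157 in the 129 female. The B6 male, second by the whole index, held 0.0843 there. The 129 female, at rank 15 by the whole index, was at rank 3 without Nr5a2. The order of the samples thus depended on Nr5a2.

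The AJ male listed the fewest member regions, 12, and had the shortest peak list, with 77887 autosomal peaks. The WSB female listed the most, 34, and had the longest, with 167051. As a share of the 67, it was 0.830 (B6 male) to 1.18 (129 female) times the share of all regions that the same sample listed. Of the member regions, 10.4% were listed in all 16 samples, against 11.8% of all regions, and 47.8% in 1 sample, against 46.4%. On average 24.8 ± 5.48 member regions (SD, n = 3) were listed in a wild-derived strain and 18.3 ± 3.95 (n = 5) in a classical one. Wild-derived strains also listed 38.1% of all regions, against 26.8%. The index was 0.221 ± 0.0325 in the wild-derived and 0.216 ± 0.0354 in the classical strains. It was 0.211 ± 0.0254 in the 8 females and 0.225 ± 0.0428 in the 8 males. In 4 of 8 strains the female value was above the male one.

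The NZO male had the highest signal of all samples in 17 of the 67 member regions, 8 of which no other sample listed, and the PWK male was highest in 11, with 9 of its own. These males listed 30 and 22 member regions. Over all regions, 33071 of the 131741 that the NZO male listed and 38059 of the 135755 that the PWK male listed were in no other sample. The share of all regions in which each male was highest is not given here. When both males were left out, 50 of the 67 member regions still had a peak, against 275791 of all 347712 regions. The NZO male was also highest over the windows of the 30 other acinar genes (0.265, next 0.209), the 8 duct genes (0.401, next 0.199), the 8 leukocyte genes (0.402, next 0.259) and the 8 endothelial genes (0.433, next 0.425). It also ranked 2nd of 16 for 12 genes of unrelated tissues (0.538) and for 8 stellate cell genes (0.226), and 3rd for 7 genes of other endocrine cells (0.518). Over the windows of the beta cell genes it ranked 14th, at 0.493. Of the defining duct and leukocyte markers, Sox9 had a listed start in the NZO male alone. The start of Cd68, a macrophage marker, was at 1.55 in that male and at most 0.613 elsewhere, and that of Csf1r at 0.455, below the 0.548 of the PWK female. The gene record starts of Ptprc, Cd3e and Cd79a were unlisted in all 16 samples, but Ptprc had another transcript start listed in 3. The number of starts listed did not set the NZO male apart. It listed 5 of 8 duct starts, as both CAST samples did, and 2 of 8 leukocyte starts, as did 6 other samples. Each window took in every region that any sample listed. A region listed by 1 sample alone thus adds to the mean of that sample and counts as 0 in the others. The part of the NZO male's many regions of its own in its acinar index, or in its place for the other gene lists, was not tested. The part of these markers in its acinar index was not tested either.

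**Figure D5:**
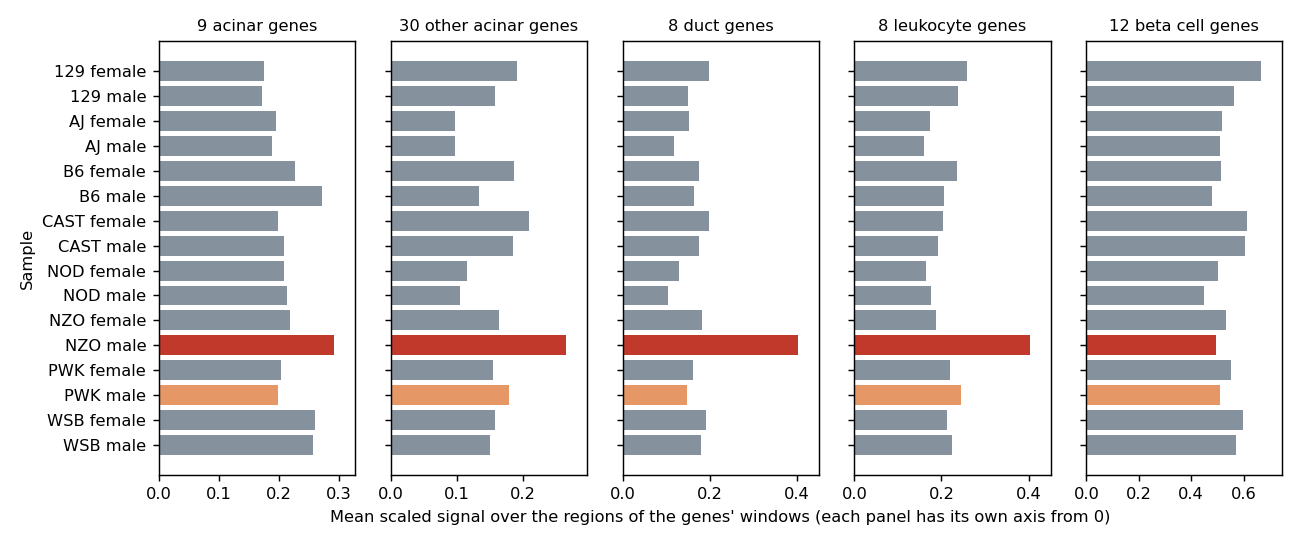
Mean scaled signal over the regions in the windows of 9 acinar genes, 30 other acinar genes, 8 duct genes, 8 leukocyte genes and 12 beta cell genes in each sample, with each axis starting at 0 on its own scale, the NZO male in red and the PWK male in orange. The NZO male is highest in the first 4 panels, at 0.291, 0.265, 0.401 and 0.402, and at 0.493 in the beta cell panel, where it ranks 14th. A region counts as 0 in every sample that did not list it.

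The 30 other acinar genes, among them further proteases, lipases, amylases and secretory proteins, gave a like picture at their starts. A start was listed in some sample for 5 of the 30 and in all 16 samples for 1. The 1 was Xbp1 (chr11:5519891-5529034), a factor of the secretory stress response that many other cells use. Its values ran from 0.793 in the NOD male to 3.31 in the 129 female with a median of 1.50, and limma called strain (adjusted p = 0.00883 over all shared regions). With summed signal in place of the highest summit, the adjusted p was 0.302. Aqp8, a water channel, was listed in 15 samples (chr7:123461989-123462400, median 0.397), at 0.909 in the NZO male, 0.728 in the NZO female, and 0 in the AJ male.

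Cckar, the receptor for the hormone that triggers enzyme secretion, was listed in 13 samples (chr5:53706078-53708232). Its start held 1.44 and 1.85 in the CAST female and male and 1.00 and 1.44 in PWK, and at most 0.382 in any other sample. The 4 samples of these strains, picked out after their values were seen, thus lay above the other 12. In the fit of regions listed by at least 12 samples, the strain effect at Cckar had an adjusted p of 0.195 by limma, so the call was not made over all regions. The trypsinogen Prss2 (0.182) and the factor Gata4 (0.309) had a peak at the start of the gene record in the NZO male alone, although another transcript start of Gata4 was listed in 4 samples. Without that sample 3 of the 30 gene record starts were listed. The other 25, among them the starts of Cpb1, Ctrl, Clps, Amy2a5 and Sycn, were unlisted in all 16 samples.

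Among 13218 start regions of other genes that all 16 samples listed, the 5 whose scaled signal followed the acinar index most closely were those of Nxnl2 (Spearman's rho 0.81 over the 16 samples), Dmpk (0.77), Gm13833 (0.75), 5830416I19Rik (0.73) and Gm25260 (0.72). The median rho was -0.18. These are the highest of many values over samples that share strains, and they are a description. Without Nr5a2 in the index, rho fell to between 0.10 and 0.50 for these 5.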

How the data were processed

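ATAC-seq peak lists of 16 islet samples were used. Per the methods of the study and the processing notes of the submitters, the authors used cutadapt 2.0 to trim Nextera adapters and Bowtie2 2.3.4.1 to align the pairs to mm10, removed unmapped and mitochondrial reads with SAMtools and duplicates with Picard 2.9.2, and called peaks in each sample with MOSAiCS. A shift of read ends for the transposase is not given in the sources used here. The deposited signal is the whole-number summit signal of a peak, not scaled to depth. The deposited significance is a −log10 p-value, used for the stricter alternative alone. The 8 deposited strain lists combine the sexes and were filtered to an irreproducible discovery rate of at most 0.05.

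Peaks of the 16 lists on the autosomes were merged where they touched, and a sample's value was its highest summit in a region. Genes were taken from GENCODE M21 on GRCm38, which is mm10, and the last peak base lay within the reference chromosome for 19 of 19. Levels were scaled by the median over shared regions. The limma 3.58.1 fits (R 4.3.3) used log2(signal + 1) centred on that median, with strain and sex in the model, and strain class was tested on strain means. Calls needed an adjusted p under 0.05. Python 3.11.15 did the rest. The fits were tested on simulated data. Alternatives were other scalings, a pseudocount of 5, other peak filters, narrower windows (gene body and 3 kb upstream), chromosome X added and each sample left out. The members and gene lists were chosen with earlier results of these data known. For each member, the start region and the region of highest median were named, and for the other acinar genes the 3 highest and 3 lowest listed starts and any call.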

Additional observations from a re-analysis of the deposited data

Results flagged for a closer look

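The scaled signal at the start of Rbpjl was 0.818 in the NZO male, far from the other 9 samples of the classical strains, which lay between 0 and 0.321. The gap to the nearest of them, the NZO female, was 0.608 of the whole range, above Dixon's 95% critical value of 0.466 for 10 samples. That critical value assumes independent and normally distributed values. Here the AJ, B6 and NOD pairs and the 129 female were unlisted and entered as 0, so it is only a guide. The NZO male's value was the 1 such value in 44 groups of samples examined over 11 measures. Under the same assumption, chance alone flags about 1 group in 20. No measure had female and male differences of opposite sign in every strain of the 2 strain classes.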

How the results depend on the processing

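Alternatives that leave out both outlying males, Nr5a2 or the regions listed in all samples were chosen after seeing the data. The 3 strain calls among member regions became 5 with no centring, where 63.2% of all regions tested were called, and ranged from 0 to 4 when 1 sample was left out, with 18.7% to 60.1% of all regions called. They were 2 to 4 under the other settings, in which the regions tested differed. Counts by sex and by strain class were 0 under every alternative run, and leave-one-out counts were 0 as well. The log2 ratio of the acinar index between wild-derived and classical strains was 0.03. It was 0.34 with no scaling, 0.44 as the share of regions listed and 0.29 without Nr5a2, and ranged from -0.02 to 0.08 with 1 sample left out. The mean log2 ratio of female to male index was -0.08. It was 0.11 with no scaling and 0.21 without Nr5a2, and ranged from -0.10 to -0.03 with 1 sample left out. The NZO male was not the highest sample by the index under the stricter peak threshold, with equal numbers of peaks or with no scaling. The 2 listed member starts stayed 2 under the stricter peak threshold, with equal numbers of peaks, without both males and with each sample left out. The count of member starts listed in all samples fell from 1 to 0 under the stricter threshold. The labels carry no replicate numbers, and the sex test pairs the samples by strain, since strain is in its model. Depth per sample is unknown, so weak peaks that a shallow library would miss cannot be told from closed chromatin.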
